A study of Homo sapiens with 12 samples.

Results

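PI3K inhibition was compared as a main effect in OPM2, a human cell line established from the malignant plasma cells of a myeloma. The libraries from cells given an inhibitor of PI3K (BKM120 or 18DS, 6 libraries) were set against the libraries from cells without it (DMSO or JQ1, 6 libraries), which together are all 12 of 12 libraries of the series. Every culture was collected after 2 h. DMSO is the vehicle, BKM120 (buparlisib, a PI3K inhibitor) was given at 1 µM, JQ1 (an inhibitor of the BET bromodomain proteins, which read acetylated histones) at 250 nM, and 18DS, a chimeric molecule that per the submitters inhibits both PI3K and BET proteins, at 250 nM. Each treatment has 3 libraries, described as biological triplicates. BET inhibition (JQ1 and 18DS) entered the model as a second factor, so the main effect joins the difference of BKM120 from DMSO, measured without BET inhibition, with that of 18DS from JQ1, measured with it. The PI3K inhibitors of the 2 backgrounds are different molecules at different doses, no culture received BKM120 and JQ1 together, and 18DS and JQ1 are different BET inhibitors. A gene that 18DS and JQ1 move to different extents through BET proteins therefore enters the PI3K effect as well, and these sources cannot be told apart. Messenger RNA was counted from its 3′ end with the QuantSeq kit, and the material is 1 cell line. The labels name no separate passage or day for the triplicates, so the spread between them may be partly technical.

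PI3K phosphorylates a membrane lipid that recruits and activates the kinase AKT. Active AKT keeps the FOXO transcription factors out of the nucleus and, through the complex mTORC1, favours ribosome production, translation and the processing of SREBP, the transcription factor of sterol and fatty acid synthesis genes. When the pathway is blocked, FOXO factors can return to the nucleus, and several of their known targets encode receptors and adaptors of the same pathway or proteins that restrain growth and promote cell death. Myeloma cells often depend on growth factor receptors and cytokines that signal through PI3K.

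Total counts per library ran from 5501895 to 7692013, and 13180 genes passed the expression filter. The summed markers of plasma and myeloma cells stood at 2708 to 3319 CPM (counts scaled to a common library size), and all 8 were tested. Levels are shares of each library's counts, and in such bulk RNA fewer cells of a kind and less RNA per cell cannot be told apart. Markers of T and NK cells summed to 0 to 1.44 CPM, those of myeloid cells to 0.162 to 3.15 and those of epithelial cells and fibroblasts to 0.515 to 2.18. The first principal component (29.9% of the variance) separated the libraries with BET inhibition from those without. On the second (18.0%) the libraries without PI3K inhibition scored -20.4 to -9.41, the BKM120 libraries 10.8 to 29.1 and the 18DS libraries -2.08, 20.8 and 5.30. The 6 libraries with PI3K inhibition all scored above the other 6 there, but the scores also differed between libraries of 1 treatment. The mitochondrial share of counts moved with PI3K inhibition too. It was 7.28% ± 0.316 with inhibition and 6.79% ± 0.222 without (SD, n = 6 each), a difference of 0.490 percentage points (two-sided exact permutation p = 0.015 within the BET backgrounds; 0.005 is the smallest p that 400 arrangements allow). BKM120 exceeded DMSO by 0.643 points and 18DS exceeded JQ1 by 0.336. On the third component 18DS replicate 2 scored 26.7, far from replicates 1 and 3 of that compound (-13.7 and -9.33), and without it the difference in mitochondrial share was 0.390 points (exact permutation p = 0.055).

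*KLF2* (ENSG00000127528) and *IRS2* (ENSG00000185950), the 2 genes taken as marks of the PI3K effect, rose with PI3K inhibition. *KLF2* encodes a transcription factor that holds lymphocytes in a resting state and is a known FOXO target. Its level was 37.7, 44 and 44 CPM with DMSO, 313, 296 and 266 with BKM120, 59.2, 39.8 and 49.6 with JQ1 and 132, 102 and 157 with 18DS. Each of the 6 libraries with PI3K inhibition lay above each of the 6 without it, and the BKM120 libraries lay above the 18DS libraries. The main effect was a log2 fold change of 2.11 (SE 0.27, edgeR adjusted p = 0.000766). The change was 2.8 (SE 0.16, edgeR adjusted p = 2.64e-07) for BKM120 against DMSO and 1.39 (SE 0.16, edgeR adjusted p = 0.000731) for 18DS against JQ1. *IRS2* encodes an adaptor that links the insulin and IGF1 receptors to PI3K. It measured 8.84, 9.82 and 6.83 CPM with DMSO, 25.1, 19.5 and 29.8 with BKM120, 9.46, 9.82 and 12.8 with JQ1 and 23, 23.4 and 27 with 18DS. The libraries with and without inhibition did not overlap, and the levels with BKM120 and with 18DS did. Its main effect was a log2 fold change of 1.34 (SE 0.12, edgeR adjusted p = 1.03e-09). The change was 1.53 (SE 0.17, edgeR adjusted p = 1.14e-07) on the DMSO side and 1.17 (SE 0.17, edgeR adjusted p = 5e-05) on the JQ1 side.

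**Figure D1:**
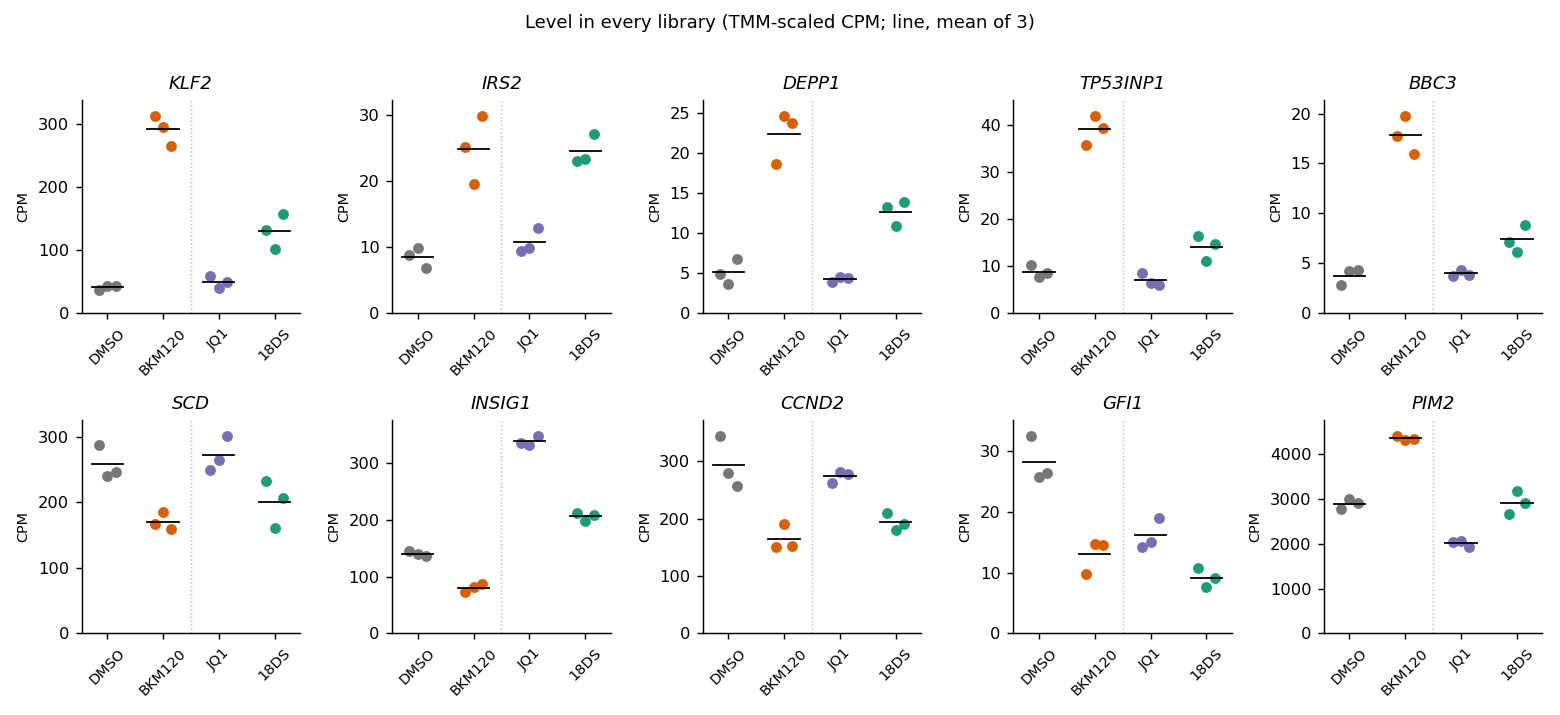
Level of 10 genes in every library, in TMM-scaled CPM on linear axes from 0, by treatment (points, 3 libraries each; line, mean; dotted line, border between the backgrounds without and with BET inhibition). *KLF2*, *IRS2*, *DEPP1*, *TP53INP1* and *BBC3* stand higher, and *SCD*, *INSIG1*, *CCND2* and *GFI1* lower, in BKM120 than in DMSO and in 18DS than in JQ1.

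In all, 2200 of 13180 tested genes (16.7%) passed edgeR's quasi-likelihood test of the PI3K main effect at a Benjamini-Hochberg adjusted p under 0.05. Of these, 1092 (8.29%) were higher and 1108 (8.41%) lower with inhibition. Most changes were small. The median log2 fold change of the higher genes was 0.37 and that of the lower genes -0.35, and 63 and 18 genes changed more than 2-fold. Both backgrounds contributed in the same direction for 1085 of the higher genes (99.4%) and 1105 of the lower (99.7%), a share that the pooled fit favours by construction. The separate comparisons were read from a model of 4 groups, which estimates the spread from all 12 libraries. There BKM120 against DMSO gave 1082 called genes (8.21%), 536 higher and 546 lower. For 18DS against JQ1 548 genes (4.16%) were called, 313 higher and 235 lower. These comparisons share no library. They had 126 higher genes in common, which is 23.5% of the BKM120 list and 40.3% of the 18DS list, and 111 lower genes, 20.3% and 47.2%. A single gene was called in opposite directions. Over all 13180 tested genes the log2 fold changes of the 2 comparisons had a Pearson correlation of 0.344 across genes, which are not independent replicates, and over the 9858 that averaged 5 CPM or more it was 0.541. In 569 tested genes (4.32%) the libraries with inhibition lay above those without it in both backgrounds, and in 626 (4.75%) below. All 6 lay above the other 6 for 297 genes (2.25%) and below for 253 (1.92%). Of the genes called higher 493 were apart in both backgrounds, and of those called lower 551. Pooling brought in 478 higher and 545 lower genes that neither comparison called alone, and the median standard error fell from 0.169 in each comparison to 0.122 in the main effect.

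The count of changed genes depended on the mitochondrial share. With that share added to the model as a covariate, 333 genes were called (2.53%), 179 higher (1.36%) and 154 lower (1.17%), and 310 of them were among the 2200. This setting was chosen after the share was seen to move with PI3K inhibition, and the covariate takes up part of the PI3K difference because the 2 go together. *KLF2* then stood at 2.14 (edgeR adjusted p = 0.024) and *IRS2* at 1.13 (edgeR adjusted p = 2.78e-05). Of 79 genes that the naming rule chose and that passed in the main effect, 45 passed with the covariate and 34 did not, with the same direction. The 34 are *MEIS1*, *BEST3*, *RPL9P28*, *IRF2BPL*, *PIK3IP1*, *EIF4E*, *FGFR3*, *SOS2*, *RRS1*, *HK2*, *SLC1A5*, *ATG101*, *FLCN*, *CDC25C*, *AURKA*, *NUF2*, *MCM5*, *MCM3*, *DNAJA1*, *DNAJB1*, *TUBA1A*, *TUBA1B*, *TUBA1C*, *TUBA4A*, *H2AC11*, *H3C4*, *KLF13*, *KLF16*, *MT-ND2*, *MT-CO2*, *MT-CO3*, *IL6ST*, *MYC* and *IRF4*. *MT-ND2*, *MT-CO2* and *MT-CO3* are themselves part of the mitochondrial share, so this setting cannot test them. Without any one library the count of the main effect lay between 1575 and 2512. The separate counts moved more, with 482 to 1564 for BKM120 against DMSO and 105 to 1027 for 18DS against JQ1. The BKM120 count was 532 with DMSO replicate 1 left out, and 552 and 482 with replicates 1 and 3 of BKM120 left out. Its highest value, 1564, came without 18DS replicate 2, a library that enters this comparison only through the shared model. The 18DS count was 317, 123 and 105 with JQ1 replicates 1, 2 and 3 left out in turn, and 1027, 215 and 159 with those of 18DS.

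**Figure D2:**
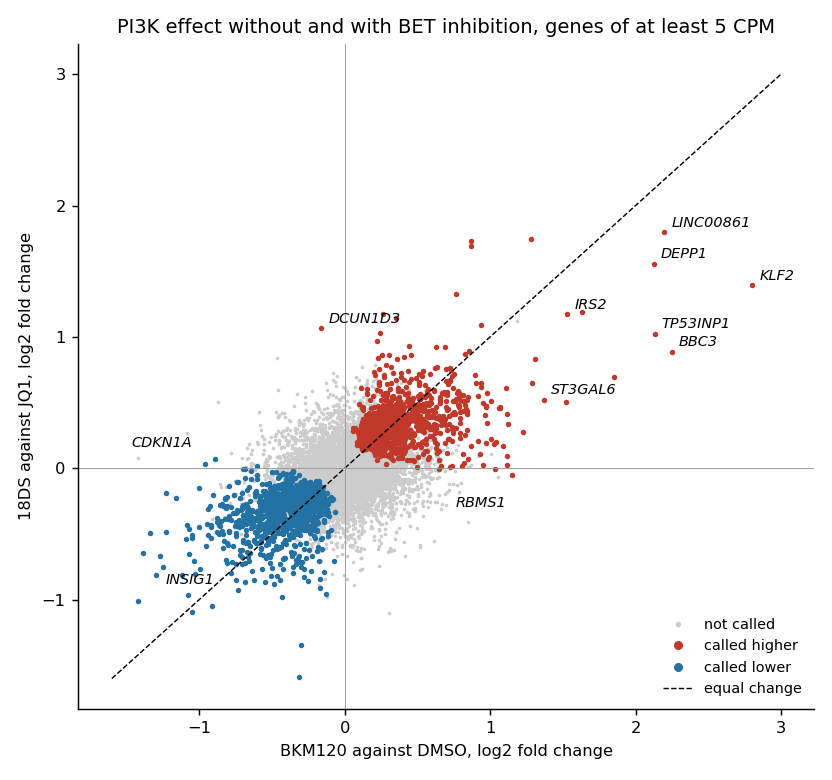
Log2 fold change of 18DS against JQ1 (vertical) plotted against that of BKM120 against DMSO (horizontal) for the 9858 genes of at least 5 CPM. Red and blue points passed the test of the main effect as higher or lower, grey points did not, and the dashed line marks equal change. *KLF2*, *TP53INP1* and *BBC3* lie below that line with larger changes for BKM120, and *DCUN1D3* lies far above it.

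FOXO-activated genes were more often higher than lower. This list includes *KLF2* and *IRS2*, and all gene lists were chosen with earlier results of these data known. Their shares are therefore a description and not a test. Of 58 listed genes with an identifier 43 passed the expression filter, and 19 of them (44.2%) were higher and 1 lower with PI3K inhibition, against 8.29% and 8.41% of all tested genes. The median log2 fold change was 0.26 over the 43 (all tested genes, -0.0025), 0.41 for BKM120 against DMSO and 0.15 for 18DS against JQ1. In the separate comparisons 19 were higher and 1 lower with BKM120 (4.07% and 4.14% of all tested genes), and 8 were higher and 0 lower with 18DS (2.37% and 1.78%). With the mitochondrial share as a covariate 14 were higher and 0 lower (all tested genes, 1.36% and 1.17%). *GADD45B*, a stress-response gene, was the member that fell in the main effect (-0.20). The member that fell in BKM120 against DMSO was *CDKN1A* (-1.42, SE 0.23, edgeR adjusted p = 6.11e-05). It did not pass in the main effect (-0.44, SE 0.21, edgeR adjusted p = 0.179). With both backgrounds at equal weight it did pass (-0.67, edgeR adjusted p = 0.00099).

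*DEPP1* (ENSG00000165507), whose product is linked to oxidative stress and autophagy, measured 4.86, 3.7 and 6.83 CPM with DMSO and 18.7, 24.7 and 23.7 with BKM120. With JQ1 it measured 3.96, 4.55 and 4.4 CPM and with 18DS 13.2, 10.9 and 13.9, so the 6 libraries with inhibition did not overlap the other 6. The main effect was a log2 fold change of 1.87 (SE 0.15, edgeR adjusted p = 3.67e-11). *TP53INP1* (ENSG00000164938), a stress gene of the p53 response and autophagy, went from 10.3, 7.73 and 8.66 CPM to 35.9, 42.1 and 39.5 with BKM120, and from 8.6, 6.37 and 6.09 with JQ1 to 16.5, 11.1 and 14.7 with 18DS (log2 fold change 1.67, SE 0.17, edgeR adjusted p = 4.97e-06). Its rise was 2.13 on the DMSO side and 1.03 on the JQ1 side, a difference of -1.11 (SE 0.25, edgeR adjusted p = 0.0558). *HBP1* (ENSG00000105856), which encodes a repressor of cell cycle genes, was at 9.72, 9.99 and 10.5 CPM with DMSO and 30.1, 28.5 and 28.2 with BKM120. Its levels with JQ1 (7.57, 9.82 and 8.03 CPM) and 18DS (12.3, 10.2 and 13.3) lay nearer to each other, and the change there was 0.50 (SE 0.17, edgeR adjusted p = 0.08). *YPEL3*, a growth-suppressing gene, had a main effect of 1.31 (SE 0.17), with 1.85 for BKM120 against DMSO and 0.70 for 18DS against JQ1. *CCNG2*, which encodes a cyclin that restrains proliferation, measured 1.18, 1.61 and 1.83 CPM with DMSO, 8.85, 9.45 and 8.09 with BKM120, 1.72, 1.09 and 1.04 with JQ1 and 2.54, 0.878 and 3.63 with 18DS. Its rise (log2 fold change 1.89, SE 0.29, edgeR adjusted p = 2.85e-05) was seen on the DMSO side, and the 18DS and JQ1 libraries overlapped (0.91, SE 0.42, edgeR adjusted p = 0.22). Other members that rose were *CREBRF* (1.67), the ubiquitin ligase gene *FBXO32* (1.59), *BCL6*, a transcriptional repressor of B cells (1.18), *MXI1*, a MYC antagonist gene (0.41), and the FOXO genes *FOXO1* (0.27) and *FOXO3* (0.20). *MXI1* rose on the DMSO side (0.74, SE 0.12, edgeR adjusted p = 7.29e-05), and 18DS against JQ1 gave 0.018 (SE 0.13, edgeR adjusted p = 0.961). *FBXO32* averaged 2.37 CPM and did not pass in 18DS against JQ1 (1.52, SE 0.64, edgeR adjusted p = 0.173).

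The upstream 250 bases of RefSeq promoters (GRCh38.p14, matched by symbol, 8840 of the 13180 tested genes) were searched on both strands for the forkhead motif GTAAACA, the sequence that FOXO factors bind. It was present in 2.98% of all 27305 promoters of the table, in 1.87% of those of tested genes, in 16 of 680 (2.35%) of those called higher and in 16 of 795 (2.01%) of those called lower. Among FOXO-activated genes it was found in 4 of 37 tested (10.8%) and in 3 of the 16 that rose and had a promoter in the table (18.8%). The promoter stretches of those 3 are shown because the genes rose and carry the motif. Letters in capitals mark the motif, and each stretch is written 5′ to 3′ on the strand of its gene.
BCL2L11 (chr2:111120664-111120737, plus strand): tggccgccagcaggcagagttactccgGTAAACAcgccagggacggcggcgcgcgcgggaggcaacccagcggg
HBP1 (chr7:107168790-107168876, plus strand): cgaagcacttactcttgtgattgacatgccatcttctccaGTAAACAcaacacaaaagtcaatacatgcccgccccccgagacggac
DEPP1 (chr10:44978943-44979029, minus strand): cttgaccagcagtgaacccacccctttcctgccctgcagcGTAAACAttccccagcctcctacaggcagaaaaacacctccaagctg
The motif begins 223, 173 and 180 bases upstream of the annotated starts of *BCL2L11*, *HBP1* and *DEPP1*. *TRIB2*, the other listed gene with the motif, did not pass the test (0.18). A match of letters is a description of the sequence and not a measured binding site.

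**Figure D3:**
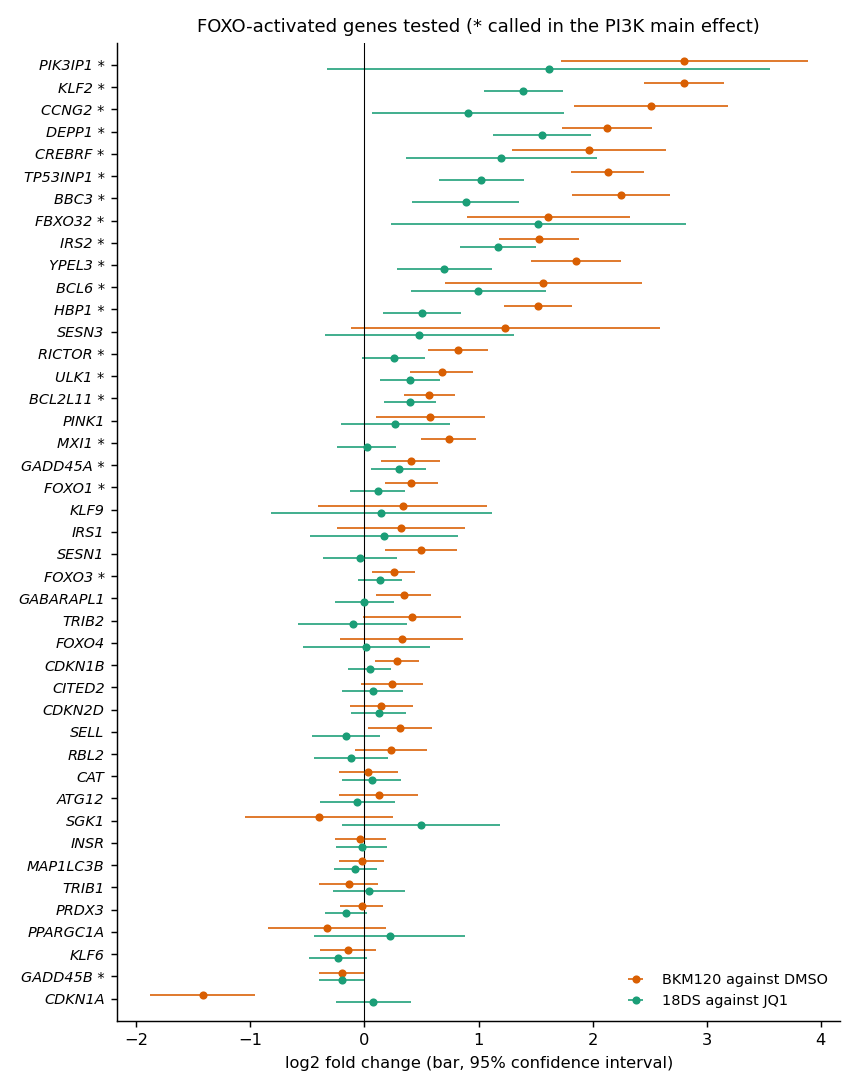
Log2 fold change with its 95% confidence interval for the 43 tested FOXO-activated genes, for BKM120 against DMSO (orange) and 18DS against JQ1 (green), sorted by the main effect (asterisk, passed its test). *KLF2*, *TP53INP1*, *BBC3*, *YPEL3* and *HBP1* have larger estimates with BKM120 than with 18DS, of which *KLF2* alone passed the test of that difference, *IRS2* and *BCL2L11* have overlapping intervals, and *CDKN1A* is lower with BKM120 and near 0 with 18DS.

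Genes of the PI3K pathway itself moved in part. Of 54 tested components of PI3K, AKT and mTOR signalling 9 were higher (16.7%) and 3 lower (5.56%), against 8.29% and 8.41% of all tested genes. The share that was lower is thus under that of all tested genes, and the median was 0.07. With the mitochondrial share as a covariate 1 was higher and 0 lower (all tested genes, 1.36% and 1.17%). *PIK3IP1*, which encodes a membrane inhibitor of PI3K, was counted at 0.589, 0 and 1.00 CPM with DMSO, 3.7, 3.25 and 4.49 with BKM120, 0.344, 0 and 0.129 with JQ1 and 0.564, 0.702 and 0.316 with 18DS. The rise (log2 fold change 2.55, SE 0.47, edgeR adjusted p = 0.000236) rests on BKM120, where all 3 libraries lay above DMSO, and on few counts. Its 18DS and JQ1 libraries overlapped (1.61, SE 0.96, edgeR adjusted p = 0.37). *AKT1S1* (ENSG00000204673), which encodes the mTORC1 inhibitor PRAS40, measured 8.69, 10.5 and 10.2 CPM with DMSO, 14.3, 13.9 and 17.3 with BKM120, 7.22, 6.37 and 8.68 with JQ1 and 14, 15.6 and 13.3 with 18DS. Levels with and without inhibition did not overlap (log2 fold change 0.77, SE 0.13, edgeR adjusted p = 5.29e-05). *TSC2* (0.42), *SESN2* (0.30) and the GATOR1 subunit gene *NPRL3* (0.33), restraints on mTORC1, rose, as did *PDCD4*, an inhibitor of translation initiation (0.71). The other members that rose were *RICTOR*, a subunit gene of mTORC2 (0.56), the phosphatase gene *INPPL1* (0.24) and *EIF4B*, an activator of translation (0.19). Of further restraints on mTORC1 or translation in the list, *DDIT4* (-0.47), *DEPTOR* (-0.16), *TSC1* (0.26) and *EIF4EBP1* (0.037) did not pass. *EIF4E*, which encodes the cap-binding translation factor, fell (log2 fold change -0.34, SE 0.063, edgeR adjusted p = 0.000279), as did *RRAGA* (-0.31) and *FLCN* (-0.44), which act in mTORC1 activation by nutrients.

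Of 14 tested growth factor receptors and adaptors 4 rose (28.6%, against 8.29% of all tested genes) and 0 fell (8.41%). Beside *IRS2* these were *FGFR3*, the receptor tyrosine kinase gene that a chromosomal translocation activates in this line, and the adaptor genes *GAB1* (0.49) and *SOS2* (0.74). *FGFR3* measured 723, 746 and 756 CPM with DMSO, 891, 787 and 892 with BKM120, 563, 539 and 510.3 with JQ1 and 594, 698 and 635 with 18DS. The groups were apart within each background, and the change was small (log2 fold change 0.23, SE 0.051, edgeR adjusted p = 0.0015). With the mitochondrial share as a covariate *IRS2* alone of these 4 passed (all tested genes, 1.36% higher). ERK feedback genes (12 tested, *IER3* higher at 0.73 and *DUSP7* lower at -0.70) had a median of -0.069.

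Genes that promote cell death were among those that rose. Of 13 tested BCL2 family genes 5 were higher (38.5%) and 0 lower, against 8.29% and 8.41% of all tested genes, with a median of 0.21. *BBC3* (ENSG00000105327) encodes the pro-apoptotic protein PUMA and measured 2.8, 4.19 and 4.33 CPM with DMSO, 17.7, 19.8 and 16 with BKM120, 3.78, 4.37 and 3.88 with JQ1 and 7.19, 6.15 and 8.84 with 18DS. The libraries with inhibition lay above all libraries without it, and those with BKM120 above those with 18DS (log2 fold change 1.64, SE 0.19, edgeR adjusted p = 1.53e-06; difference between the backgrounds -1.36, SE 0.32, edgeR adjusted p = 0.0689). *BCL2L11*, which encodes BIM, measured 27.2, 29.5 and 32.7 CPM with DMSO, 44.6, 45.3 and 42.2 with BKM120, 25.3, 31.1 and 26.7 with JQ1 and 35.7, 34.8 and 38.8 with 18DS, again without overlap (log2 fold change 0.49, SE 0.080, edgeR adjusted p = 6.06e-05). *PMAIP1*, which encodes NOXA, rose by 0.60 (SE 0.10), and *BAX* (0.32) and *BCL2L12* (0.21) rose by less. With the mitochondrial share as a covariate 3 of the 13 were higher (all tested genes, 1.36%). The list of p53 target genes, which shares *BBC3*, *PMAIP1* and *BAX* with it, had 7 of 26 higher (26.9%) and 2 lower (7.69%), against 8.29% and 8.41% of all tested genes. *AEN*, a nuclease gene of that list, fell from 53.9, 60.1 and 60 CPM with DMSO to 25.4, 36.6 and 29.6 with BKM120 and from 27.2, 25.1 and 22.9 with JQ1 to 15.2, 18.8 and 18 with 18DS (log2 fold change -0.75, SE 0.095, edgeR adjusted p = 9.99e-07).

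Sterol and fatty acid synthesis genes were more often lower than higher. Of 36 tested 10 were lower (27.8%) and 1 higher (2.78%), against 8.41% and 8.29% of all tested genes, with a median of -0.11. In the separate comparisons 10 were lower with BKM120 (all tested genes, 4.14%) and 4 with 18DS (1.78%), and 0 were higher in either. *INSIG1* (ENSG00000186480), a sterol-sensing brake on SREBP, stood at 146, 139 and 135 CPM with DMSO and 72.9, 81.4 and 86.4 with BKM120, and at 335, 332 and 347 with JQ1 and 211, 198 and 208 with 18DS. Levels were higher in both groups with BET inhibition, and the fall with PI3K inhibition was of like size on both sides, -0.81 and -0.72, with a difference of 0.088 (SE 0.11, edgeR adjusted p = 0.912) and a 95% confidence interval from -0.13 to 0.31. Its main effect (log2 fold change -0.76, SE 0.055, edgeR adjusted p = 5.26e-12) had the smallest adjusted p of the list. *SCD*, the stearoyl-CoA desaturase gene, measured 287, 240.1 and 246 CPM with DMSO, 167, 186 and 159 with BKM120, 249.6, 264 and 302 with JQ1 and 233, 162 and 207 with 18DS (log2 fold change -0.52, SE 0.079, edgeR adjusted p = 0.000168). All libraries with PI3K inhibition lay below all without it. The cholesterol pathway genes *HMGCS1* (-0.56), *MSMO1* (-0.54) and *SQLE* (-0.49) fell too. The fatty acid synthesis genes *ACLY* (-0.29) and *FASN* (-0.27) fell least. *SCAP*, which escorts SREBP, was the member that rose (0.25). With the mitochondrial share as a covariate 5 were lower and 0 higher (all tested genes, 1.17% and 1.36%). The SREBP motif TCACNCCAC, searched on both strands of the same 250 bases, was in 0.894% of tested promoters and in 1 of 29 of this list, that of *SREBF2*, which did not pass (0.11).

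Ribosome biogenesis factors were more often lower, and ribosomal protein transcripts more often slightly higher. Of 82 tested factors that build the ribosome 27 were lower (32.9%) and 2 higher (2.44%), against 8.41% and 8.29% of all tested genes. The median was -0.17. In the separate comparisons 20 were lower with BKM120 (all tested genes, 4.14%) and 5 with 18DS (1.78%). *UTP3* (ENSG00000132467), a factor of the small subunit processome, measured 272, 256 and 249 CPM with DMSO, 149, 168 and 147 with BKM120, 159, 158 and 166 with JQ1 and 130.4, 106 and 127 with 18DS. It was lower within each background, and the BKM120 and JQ1 libraries overlapped (log2 fold change -0.58, SE 0.065, edgeR adjusted p = 1.17e-07). *BRIX1*, a large subunit assembly factor, went from 75.6, 78 and 73 to 37.5, 47.4 and 45.6 CPM with BKM120 and from 41.5, 47.7 and 49.7 with JQ1 to 37.2, 33.9 and 28.4 with 18DS (log2 fold change -0.65, SE 0.080, edgeR adjusted p = 8.81e-07). *RRS1* (-0.54), *RRN3*, a factor of RNA polymerase I (-0.60), the polymerase I subunit gene *POLR1B* (-0.49) and *IMP3* (-0.53) also fell. *FBL* (0.21) and *UBTF* (0.19) rose. With the mitochondrial share as a covariate 9 were lower and 0 higher (all tested genes, 1.17% and 1.36%). Of 79 ribosomal protein genes 36 rose (45.6%) and 4 fell (5.06%), with a median of 0.12, and the counts were 24 and 8 when libraries were scaled by their totals alone and 13 and 0 with the mitochondrial share as a covariate. *RPL29* measured 257, 299 and 326 CPM with DMSO, 418, 333 and 417 with BKM120, 303, 268 and 288 with JQ1 and 379, 426 and 402 with 18DS (log2 fold change 0.45, SE 0.062, edgeR adjusted p = 7.39e-06). The DMSO libraries themselves spread over 257 to 326 CPM. All libraries with PI3K inhibition lay above these and above those of JQ1. *RPL10* also rose (0.37, SE 0.052). Of 15 mitochondrially encoded transcripts 6 rose (40%) and 0 fell, led by *MT-ND2* (0.34, SE 0.056), in step with the mitochondrial share. The ribosomal protein genes are near their pseudogenes in sequence, and how reads that fit several places were counted is not given in the sources used here.

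MYC-activated genes fell in 14 of 57 cases (24.6%) and rose in 3 (5.26%), against 8.41% and 8.29% of all tested genes, with a median of -0.095. *CDC25A*, a phosphatase gene of cell cycle entry, fell by 0.51 on the log2 scale, *HK2*, which encodes a hexokinase, by 0.44, and *PPRC1* stood at -0.59. The list shares *RRS1*, *WDR43*, *BYSL* and others with the ribosome biogenesis factors. With the mitochondrial share as a covariate 4 were lower and 0 higher (all tested genes, 1.17% and 1.36%). *MYC* itself measured 28.6, 32.2 and 27.2 CPM with DMSO, 56.5, 47.4 and 50.1 with BKM120, 2.24, 2.91 and 2.46 with JQ1 and 3.66, 2.46 and 1.42 with 18DS. It was higher with BKM120 than with DMSO (0.81, SE 0.13, edgeR adjusted p = 5.01e-05) and overlapped between JQ1 and 18DS (0.019, SE 0.30, edgeR adjusted p = 0.983). The additive model weights the backgrounds by their counts, so its main effect (log2 fold change 0.69, SE 0.13, edgeR adjusted p = 0.000258) is mostly the DMSO side. The mean of both sides with equal weight was 0.41 (edgeR adjusted p = 0.0808) on the log2 scale.

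Cell cycle genes were mixed. Of 19 tested D cyclins, CDK inhibitors and partners 5 fell (26.3%) and 2 rose (10.5%), against 8.41% and 8.29% of all tested genes. With the mitochondrial share as a covariate 2 fell and 1 rose (all tested genes, 1.17% and 1.36%). *CCND2* (ENSG00000118971), which encodes cyclin D2, measured 344, 279 and 256 CPM with DMSO, 151, 189.7 and 152 with BKM120, 262, 282 and 278 with JQ1 and 209, 180.5 and 190.3 with 18DS. Libraries with inhibition lay below all others (log2 fold change -0.67, SE 0.083, edgeR adjusted p = 2.85e-05). *CCNE1* (-0.43), *RB1* (-0.38) and *CDK4* (-0.27) fell, and *CDKN2A* rose (0.20). Among 46 E2F and DNA replication genes 6 rose (13%) and 3 fell (6.52%), near the shares of all tested genes, and with the covariate 1 rose and 0 fell. Named members are *LIG1* (0.49, SE 0.077) and *MCM5* (0.40, SE 0.067) higher and *MCM3* (-0.48, SE 0.081) lower. Of 51 G2/M genes 4 rose and 2 fell (7.84% and 3.92%, near or under the shares of all tested genes), which turned to 3 and 5 with library totals and to 0 and 1 with the covariate. Among them were *CDC25C* (0.65, SE 0.14) and *AURKA* (-0.30, SE 0.064).

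Immediate early and AP-1 genes rose in 7 of 23 cases (30.4%) and fell in 3 (13%), against 8.29% and 8.41% of all tested genes. The counts were 4 and 0 with the mitochondrial share as a covariate (all tested genes, 1.36% and 1.17%). *JUN* (ENSG00000177606), a subunit gene of AP-1, measured 27.2, 25.8 and 28 CPM with DMSO, 41.2, 38.8 and 41 with BKM120, 54, 53.3 and 50.4 with JQ1 and 79.2, 74.8 and 77.5 with 18DS. The rise was 0.58 without and 0.56 with BET inhibition, and the difference was -0.021 (SE 0.13, edgeR adjusted p = 0.986) with a 95% confidence interval from -0.29 to 0.25. *BTG1*, an antiproliferative gene, went from 173, 183 and 186 to 356, 328 and 363 CPM with BKM120 and from 162, 168 and 169.8 with JQ1 to 229.9, 222 and 251 with 18DS (log2 fold change 0.72, SE 0.066, edgeR adjusted p = 8.2e-09). *PPP1R15A*, which restores translation after stress, rose by 0.63 (SE 0.11). The nuclear receptor genes of the list moved apart, with *NR4A2* higher (1.61) and *NR4A1* lower (-1.01), and *SRF* fell (-0.76).

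Metabolic and stress lists had members called in both directions, and the balance of 3 of them turned with the scaling. Of all tested genes 8.29% were higher and 8.41% lower, and 1.36% and 1.17% with the mitochondrial share as a covariate. ATF4 targets and aminoacyl-tRNA synthetases had 8 of 44 higher (18.2%) and 4 lower (9.09%), which turned to 6 and 9 when libraries were scaled by their totals alone and were 3 and 0 with the mitochondrial share as a covariate. Among them were the amino acid transporter genes *SLC38A2* higher (0.50, SE 0.074) and *SLC1A5* lower (-0.51, SE 0.10) and *CHAC1* (0.65) and *SLC7A11* (0.65) higher. Of 54 autophagy and lysosome genes 7 rose (13%) and 4 fell (7.41%), near the shares of all tested genes, with 4 and 6 by library totals and 1 and 0 with the covariate. *ULK1*, the kinase gene that starts autophagy, rose by 0.53 (SE 0.10), and *ATG101*, which encodes a partner of that kinase, fell (-0.50, SE 0.10), though its reads cannot be told apart from those of an identifier with near-identical counts. Of 28 heat shock chaperones 4 rose (14.3%) and 6 fell (21.4%), with 3 and 10 by library totals and 1 and 0 with the covariate. *DNAJB1* measured 70.5, 70.7 and 79.1 CPM with DMSO, 40.4, 44 and 46 with BKM120, 124, 143 and 149 with JQ1 and 123, 119.9 and 119 with 18DS. BKM120 lowered it (-0.76, SE 0.093, edgeR adjusted p = 7.54e-07), and 18DS against JQ1 gave -0.20 (SE 0.084, edgeR adjusted p = 0.177). *AHSA1*, a co-chaperone gene, rose by 0.37 (SE 0.062). Of 37 glycolysis, pentose phosphate and hypoxia genes 6 rose (16.2%) and 4 fell (10.8%), which turned to 3 and 6 by library totals and to 3 and 5 without 18DS replicate 2, and was 1 and 1 with the covariate. *PFKFB3*, which encodes an enzyme that stimulates glycolysis, went from 64.5, 55.9 and 53.8 to 29.6, 36.2 and 26.1 CPM with BKM120 and from 48.5, 49.3 and 53 with JQ1 to 43.1, 31.8 and 35.2 with 18DS (log2 fold change -0.68, SE 0.10, edgeR adjusted p = 2.35e-05), and *TKT* rose by 0.39 (SE 0.064). The alpha and beta tubulin list (11 tested) had 4 members lower (36.4%) and 0 higher, *TUBA1A*, *TUBA1B*, *TUBA1C* and *TUBA4A* (-0.25 to -0.45), and 0 lower with the covariate. In the separate comparisons 2 were lower with BKM120 (all tested genes, 4.14%) and 0 with 18DS (1.78%). *TUBA4A* gave -0.47 with BKM120 and -0.029 (SE 0.074, edgeR adjusted p = 0.878) in 18DS against JQ1. The tubulin genes are close in sequence, and *TUBA1B* and *TUBA1C* each have an identifier with near-identical counts, from whose reads theirs cannot be told apart. *TUBB* did not pass (-0.13, SE 0.048, edgeR adjusted p = 0.0593).

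Plasma cell and myeloma genes were also split, with 7 of 32 higher (21.9%) and 6 lower (18.8%), against 8.29% and 8.41% of all tested genes, and 6 and 8 by library totals. *PIM2* (ENSG00000102096), a survival kinase gene of myeloma, measured 2765, 2989.8 and 2915 CPM with DMSO, 4405, 4314 and 4345 with BKM120, 2034, 2056 and 1933 with JQ1 and 2659.7, 3175 and 2907 with 18DS. The JQ1 libraries lay below DMSO, and PI3K inhibition raised it by 0.59 and 0.54 on the 2 sides (log2 fold change 0.56, SE 0.047, edgeR adjusted p = 9.27e-11), with a difference of -0.054 (SE 0.10, edgeR adjusted p = 0.948) and a 95% confidence interval from -0.25 to 0.14. *PIM1* rose (0.79) and *PIM3* fell (-0.35). *CCR1*, a chemokine receptor gene, went from 97.5, 85 and 91.1 to 38.8, 46.4 and 43.3 CPM with BKM120 and from 16, 18 and 18.6 with JQ1 to 13, 11.6 and 11.7 with 18DS (log2 fold change -0.90, SE 0.091, edgeR adjusted p = 1.08e-08). *IRF4*, the transcription factor gene on which myeloma cells depend, was lower with BKM120 (-0.38, SE 0.072, edgeR adjusted p = 0.000668) and gave -0.045 (SE 0.073, edgeR adjusted p = 0.794) in 18DS against JQ1. Of 12 KLF factors, *KLF2* and *KLF7* (0.82) rose and *KLF13* (-0.28, SE 0.068) and *KLF16* (-0.73, SE 0.14) fell.

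Some transcripts known to respond to BET inhibitors were higher in 18DS than in JQ1. Of 14 tested BET inhibitor response genes 6 were higher (42.9%) and 0 lower, against 8.29% and 8.41% of all tested genes. The counts were 4 and 0 with the mitochondrial share as a covariate (all tested genes, 1.36% and 1.17%). In BKM120 against DMSO 0 were called in either direction by edgeR (all tested genes, 4.07% higher and 4.14% lower). In 18DS against JQ1 5 were higher and 0 lower (all tested genes, 2.37% and 1.78%). *DCUN1D3*, a regulator of cullin neddylation, measured 1.62, 1.77 and 2.83 CPM with DMSO, 0.483, 2.07 and 3.05 with BKM120, 34.4, 41.3 and 39.2 with JQ1 and 80.2, 70.6 and 89.5 with 18DS. BKM120 and DMSO overlapped and 18DS lay above JQ1. Its main effect (log2 fold change 0.94, SE 0.17, edgeR adjusted p = 0.00172) lost its call when both sides had equal weight (0.45, edgeR adjusted p = 0.166), and the difference between the sides was 1.23 (SE 0.43, edgeR adjusted p = 0.387). *SERTAD1*, a transcriptional co-regulator gene, gave 0.20 (SE 0.28, edgeR adjusted p = 0.718) with BKM120 and 0.73 (SE 0.13, edgeR adjusted p = 0.000871) with 18DS. *HEXIM1*, a common marker of BET inhibition, did not pass in the main effect (0.16, SE 0.082, edgeR adjusted p = 0.193). For these genes a PI3K effect and unequal BET inhibition by JQ1 and 18DS cannot be told apart. Polyadenylated histone transcripts share *H1-2* (0.35, SE 0.061), *H2AC6* and *H2BC12* with this list. Of 21 tested histone genes 7 were higher (33.3%) and 3 lower (14.3%), against the same 8.29% and 8.41%, and 2 and 0 with the covariate.

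**Figure D4:**
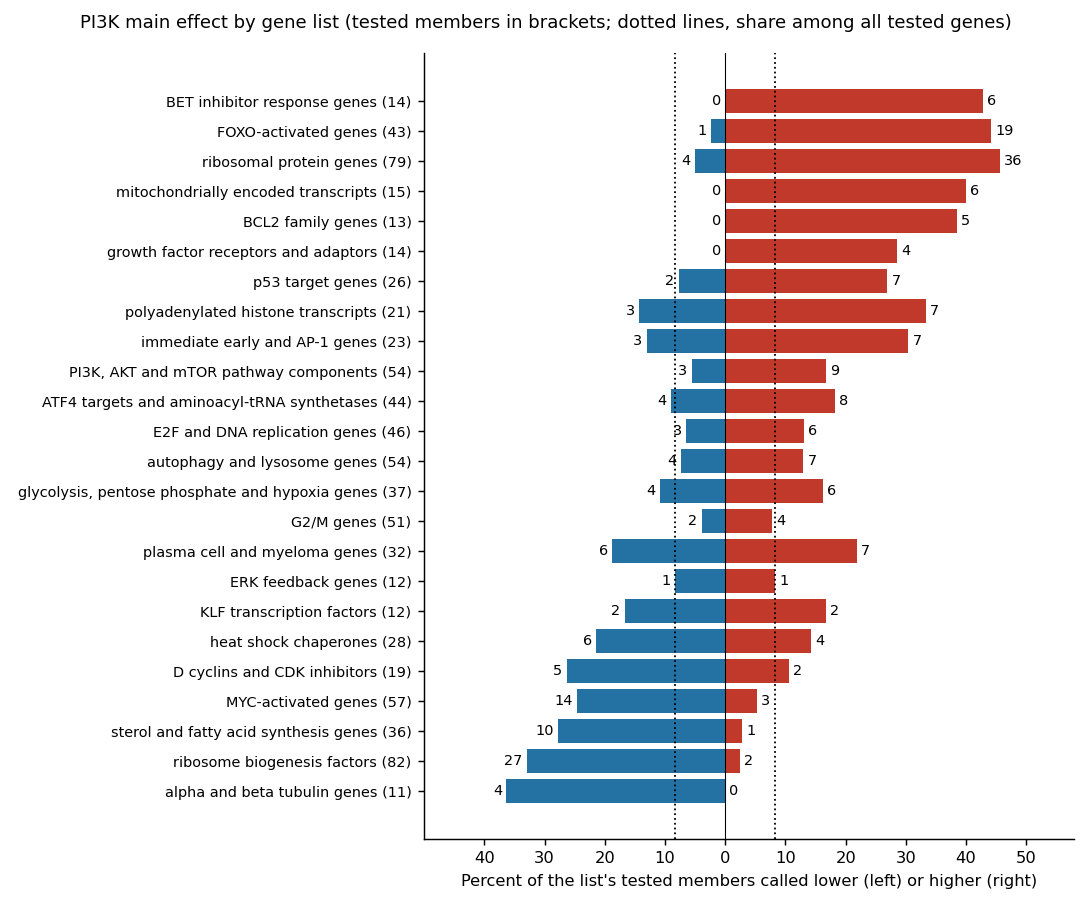
Percent of each list's tested members that passed the test of the PI3K main effect as lower (blue, left) or higher (red, right), with the number of genes at each bar and of tested members in brackets. Dotted lines mark the 8.41% and 8.29% of all tested genes. FOXO-activated genes reach 44.2% higher, and ribosome biogenesis factors 32.9% and sterol and fatty acid synthesis genes 27.8% lower. The lists were chosen with earlier results of these data known.

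Outside the lists, the largest rise among genes of at least 5 CPM that were apart in both backgrounds, after that of *KLF2*, was that of *LINC00861* (ENSG00000245164), a long non-coding RNA gene. It measured 6.19, 7.09 and 5.0 CPM with DMSO, 28.2, 26.4 and 29.6 with BKM120, 1.55, 4.0 and 2.85 with JQ1 and 6.77, 10.4 and 12.3 with 18DS. The JQ1 libraries lay below DMSO and PI3K inhibition raised the transcript on both sides, so that the 18DS libraries overlapped DMSO or lay above it (log2 fold change 2.06, SE 0.16, edgeR adjusted p = 2.6e-11). *MEIS1*, a homeobox gene, rose by 1.01 (SE 0.18), and *BEST3*, a channel gene, by 0.99 (SE 0.16). Of the falls, *PLD6*, a mitochondrial phospholipase gene, went from 18.4, 18.8 and 18.7 to 6.92, 9.74 and 10.4 CPM with BKM120 and from 7.91, 8.19 and 10.9 with JQ1 to 3.1, 5.27 and 4.58 with 18DS, -1.05 and -1.09 (log2 fold change -1.06, SE 0.14, edgeR adjusted p = 3.21e-06). *GFI1*, which encodes a zinc finger repressor of blood cells, measured 32.5, 25.8 and 26.5 CPM with DMSO, 9.82, 14.8 and 14.6 with BKM120, 14.3, 15.1 and 19 with JQ1 and 10.7, 7.73 and 9.16 with 18DS. It was lower within each background (log2 fold change -0.98, SE 0.12, edgeR adjusted p = 8.56e-07). *GLIS2*, a zinc finger factor gene (-0.94, SE 0.13), *IRF2BPL* (-0.98, SE 0.15), *NUDT19* (-0.92, SE 0.15) and *IDI2*, a gene of isoprenoid synthesis (-0.89, SE 0.16), fell too. The pseudogenes *HNRNPUP1* (-1.21, SE 0.19) and *RPL9P28* (-1.02, SE 0.22) are among the 10 largest falls, and their reads may not be separable from those of *HNRNPU* (-0.18) and *RPL9* (-0.17), whose changes were smaller.

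The additive model holds 1 PI3K effect for both backgrounds, and the test of the difference between them called 16 genes (0.121%) by edgeR, 9 more positive (0.0683%) and 7 more negative (0.0531%) with BET inhibition. The doses and molecules of the 2 sides differ, so this is a difference between the pairs of treatments. *CDKN1A*, the gene of the CDK inhibitor p21, measured 10.5, 7.57 and 8.83 CPM with DMSO, 2.58, 3.25 and 4.31 with BKM120, 17.2, 16.2 and 14.2 with JQ1 and 17.5, 14.9 and 17.5 with 18DS. It was lower with BKM120 than with DMSO, and 18DS overlapped JQ1 (difference between the backgrounds 1.5, SE 0.28, edgeR adjusted p = 0.0145). *JUNB*, an AP-1 gene, was lower with BKM120 (34.8, 27.9 and 30.5 CPM against 37.4, 44.6 and 45.8) and higher with 18DS (67.4, 64.3 and 65.7 against 46.1, 44.4 and 59 with JQ1), so that its main effect was near 0. *MIDN*, whose product delivers proteins to the proteasome, *MAT2A*, which encodes the enzyme that makes S-adenosylmethionine, and *RIOX1* were also lower with BKM120 than with DMSO, and their changes were less negative or positive with 18DS.

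In the other direction, *KLF2* rose less with 18DS than with BKM120 (difference between the backgrounds -1.41, SE 0.22, edgeR adjusted p = 0.0321). *ST3GAL6*, a sialyltransferase gene, rose on both sides, from 34.2, 36.7 and 35.3 to 93.7, 88.1 and 92.5 CPM with BKM120 and from 24.9, 25.6 and 25 with JQ1 to 35.9, 37 and 35.7 with 18DS. *RBMS1*, an RNA-binding protein gene, was at 50.8, 49.6 and 49.5 CPM with DMSO and 80.2, 83 and 83 with BKM120, but at 36.1, 36 and 38.5 with JQ1 and 29.6, 33.4 and 35.8 with 18DS. *CCDC117* measured 46.2, 46.9 and 46.2 CPM with DMSO and 77, 78.7 and 78 with BKM120, and 44.7, 45.1 and 48.3 with JQ1 and 47.6, 36.3 and 42.6 with 18DS. For both genes the rise with BKM120 had no counterpart in 18DS, whose libraries overlapped or lay under those of JQ1. *IL6ST*, which encodes the shared receptor chain of the interleukin 6 family, a growth factor of myeloma cells, rose with BKM120 (0.97, SE 0.11, edgeR adjusted p = 8.96e-08), and 18DS against JQ1 gave 0.19 (SE 0.12, edgeR adjusted p = 0.382). The count of 16 moved to between 3 and 31 when single libraries were left out, with 7 and 3 for DMSO replicates 2 and 3, 8, 6 and 10 for JQ1 replicates 1, 2 and 3, 5 and 6 for BKM120 replicates 1 and 3, and 26, 31 and 8 for 18DS replicates 1, 2 and 3. The 3 genes called without DMSO replicate 3 were all more negative with BET inhibition, so that none of the positive differences, *CDKN1A*, *JUNB*, *MIDN*, *MAT2A* and *RIOX1* included, passed without that library.

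**Figure D5:**
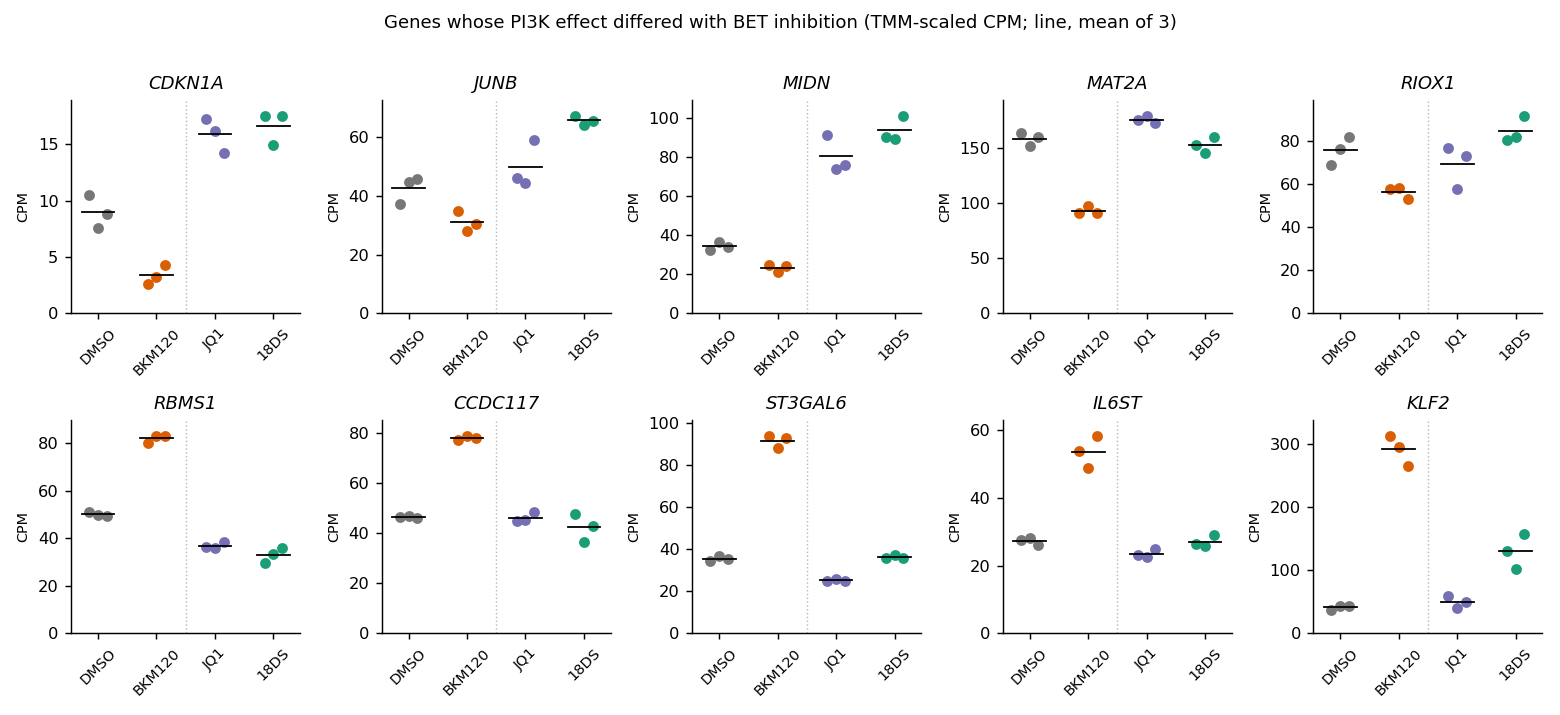
Level of the 10 genes named for the difference between the backgrounds, in TMM-scaled CPM on linear axes from 0, in every library (points; line, mean of 3; dotted line, border between the backgrounds). *CDKN1A*, *JUNB*, *MIDN*, *MAT2A* and *RIOX1* are lower in BKM120 than in DMSO, and *RBMS1*, *CCDC117*, *ST3GAL6*, *IL6ST* and *KLF2* are higher in BKM120 than in DMSO by more than 18DS differs from JQ1.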

How the data were processed

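QuantSeq 3′ mRNA libraries of OPM2 cells (4 treatments, 3 libraries each, 2 h) were measured as raw counts per Ensembl gene, which the authors deposited as whole numbers without normalization. The submitters' processing notes name HISAT2 2.1.0 and featureCounts (Subread), beside bcl2fastq 2.17.1.14, cutadapt 1.7, SAMtools 1.9, FastQC 0.11.5 and limma, and hg19 as the build. The release of the annotation, the use of strand and the counting of reads that fit several places were not given in the sources used here. Gene symbols, from a list of names, were found for 39560 of 63152 identifiers, and 1366 tested genes had none.

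All tests used edgeR 4.0.16 (R 4.3.3, data.table version 1.17.8), with DESeq2 1.42.0 and limma 3.58.1 as alternatives, and plots used pandas 2.3.3, numpy 2.4.6 and matplotlib 3.10.9 (Python 3.11.15). Low genes were removed by filterByExpr (minimum count 10, minimum total count 15), and libraries were scaled by TMM (factors 0.971 to 1.033). The main effect is the PI3K coefficient of an additive model of BET and PI3K inhibition over 12 libraries (robust quasi-likelihood fit, biological coefficient of variation 0.103, residual degrees of freedom 9). BKM120 against DMSO, 18DS against JQ1 and their difference came from a model of 4 groups (residual degrees of freedom 8). The call was made at 0.05 after Benjamini-Hochberg adjustment over all tested genes, and intervals are 95% confidence intervals. CPM use TMM-scaled totals, except summed markers. The tests were checked on simulated data.

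The members and the 28 gene lists (970 entries, 10 without an identifier) were chosen with earlier results of these data known, and lists are described by counts and medians, with no test. Named genes are *KLF2* and *IRS2*, the 10 genes with the largest rises and the 10 with the largest falls among those called, of at least 5 CPM and apart in both backgrounds, the 3 called members with the smallest adjusted p of each list with 3 or more called, 5 genes per direction of the difference, and a short preset list. Other list members are given by the fold change of the same fit, and some genes are not reported here. Same-numbered libraries were not paired in the labels, and the correlations of their deviations were -0.163 to 0.116 over 18 pairs, with 1 over 0.1. Replicates differed by more than counting noise (chi-square per degree of freedom 1.91 to 8.67). Named genes were checked for identifiers within 5% of their counts in every library. *TXNIP*, a FOXO-regulated gene, was looked up by its symbol as ENSG00000265972, an identifier with 0 counts. Whether its reads were counted under another identifier was not tested, so this does not show that the gene is silent.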

Additional observations from a re-analysis of the deposited data

Results flagged for a closer look

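The PI3K effect of 10 genes with a symbol and at least 5 CPM differed between the backgrounds by edgeR's test of (18DS minus JQ1) minus (BKM120 minus DMSO). The difference was positive for *CDKN1A* (1.5, SE 0.28, edgeR adjusted p = 0.0145), *JUNB* (0.85, SE 0.16, edgeR adjusted p = 0.0145), *MIDN* (0.78, SE 0.15, edgeR adjusted p = 0.0163), *MAT2A* (0.56, SE 0.11, edgeR adjusted p = 0.0186) and *RIOX1* (0.71, SE 0.14, edgeR adjusted p = 0.0205). None of these 5 passed without DMSO replicate 3, where 3 genes were called and all had a negative difference. *CDKN1A* and *MAT2A* fell with BKM120 (-1.42 and -0.76) and gave 0.078 and -0.20 with 18DS against JQ1. *JUNB* passed in opposite directions, at -0.45 (SE 0.12, edgeR adjusted p = 0.0111) and 0.39 (SE 0.11, edgeR adjusted p = 0.0313). The reads of *RIOX1* cannot be told apart from those of an identifier with near-identical counts.

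It was negative for *RBMS1* (-0.88, SE 0.14, edgeR adjusted p = 0.00188), *CCDC117* (-0.87, SE 0.14, edgeR adjusted p = 0.00188), *ST3GAL6* (-0.85, SE 0.14, edgeR adjusted p = 0.00209), *IL6ST* (-0.78, SE 0.16, edgeR adjusted p = 0.024) and *KLF2* (-1.41, SE 0.22, edgeR adjusted p = 0.0321). *RBMS1* and *CCDC117* rose with BKM120 (0.72 and 0.75) and gave -0.17 and -0.12 with 18DS against JQ1. BKM120 was given at 1 µM and 18DS at 250 nM, so dose and background cannot be told apart.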

How the results depend on the processing

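The count of the main effect (2200) was within 1.5 times under other scalings, filters, tools and left-out libraries (1575 to 2512). It was 1180 without the BET term and 333 with the mitochondrial share as a covariate, a setting chosen after seeing the data. Scaling moved the split, with 49.6% of called genes higher by TMM, 35.1% by library totals (836 higher, 1547 lower) and 60.8% by upper-quartile factors (1358 and 877). With a replicate block the counts were 2105, 1042, 522 and 16 for the main effect, BKM120, 18DS and the difference. The numbers do not pair the samples. With the covariate BKM120 against DMSO gave 218 and 18DS against JQ1 224. Fitted on the libraries of their own 2 groups alone, they gave 1241 and 576. Left-out libraries gave 482 to 1564 for BKM120 (DMSO replicate 1 left out, 532; BKM120 replicate 1, 552; BKM120 replicate 3, 482). For 18DS they gave 105 to 1027, with 317, 123 and 105 without JQ1 replicates 1, 2 and 3 and 1027, 215 and 159 without 18DS replicates 1, 2 and 3. The difference (16) was 45 without a filter, 10 without the robust option, 8 by limma-voom and 3 to 31 with libraries left out (0 higher and 3 lower without DMSO replicate 3). The mitochondrial difference lay between 0.390 and 0.579 points (exact permutation p 0.005 to 0.055). The causes were not tested.

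The naming rule chose 79 genes that were called in the main effect. Leaving aside the covariate and the model without the BET term, 76 kept their call in every setting that gave them a value. The others were *DCUN1D3* (lost with DESeq2's Wald test and with equal weight of the backgrounds), *MYC* (equal weight) and *TUBA1A* (7 left-out libraries). *MEIS1* and *CCNG2* had a value in 23 of 24 settings and *PIK3IP1* in 22. *JUNB*, at 0.0034, turned to -0.036 with library totals, -0.012 with DESeq2's Wald test, -0.031 with equal weight, and -0.067, -0.082, -0.045, -0.023 and -0.037 without JQ1 replicates 1 and 2 and 18DS replicates 1, 2 and 3. *MIDN*, at -0.095, turned to 0.031 without the BET term and 0.078 with the covariate. *RIOX1*, at -0.060, turned to 0.0014 and 0.0023 without DMSO replicate 3 and BKM120 replicate 3 and 0.17 with the covariate. Over all left-out libraries *JUNB* lay between -0.082 and 0.088 and *RIOX1* between -0.15 and 0.0023. None of the 3 was called in the main effect in any of these settings. *CDKN1A*, *RBMS1* and *CCDC117*, not called in the main effect, passed with equal weight of the backgrounds. Their values there were -0.67, 0.27 and 0.31 (edgeR adjusted p = 0.00099, 0.0047 and 0.0016).

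List medians near 0 changed sign for ATF4 targets, D cyclins, G2/M, E2F, glycolysis, ERK feedback and plasma cell genes under at least 1 setting. Those of FOXO, BCL2, sterol, MYC, ribosome biogenesis and ribosomal protein genes kept theirs in the settings run for lists. The median standard error of 0.122 leaves small changes of low genes undetected.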

Other observations

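Gene families were counted by their symbols, chosen after the results were seen. Of 91 nuclear genes of the respiratory chain and ATP synthase 21 rose (23.1%) and 12 fell (13.2%) with PI3K inhibition, against 8.29% and 8.41% of all tested genes, and the median log2 fold change was 0.018. In 18DS against JQ1 12 were higher (13.2%) and 1 lower (1.1%), against 2.37% and 1.78% of all tested genes. BKM120 against DMSO gave 5 higher (5.49%) and 2 lower (2.2%), against 4.07% and 4.14%. Of 289 ZNF zinc finger genes 8 rose (2.77%) and 26 fell (9%), with a median of -0.090. Of 76 mitochondrial ribosomal protein genes 5 rose (6.58%) and 10 fell (13.2%), and of 174 solute carrier genes 11 rose (6.32%) and 19 fell (10.9%). Of 61 translation initiation factor genes 10 rose (16.4%) and 8 fell (13.1%), and of 36 proteasome subunit genes 4 rose (11.1%) and 3 fell (8.33%).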
